A study of Mus musculus with 14 samples.

Results

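Stop-gained and essential splice-site changes were examined in the exomes of 12 p53null mouse mammary tumours. A gene was included when at least 1 tumour had a variant labelled as stop-gained, splice acceptor or splice donor in a protein-coding transcript of that gene. Of 21312 protein-coding genes listed in any tumour, 3157 (14.8%) met this rule. The 3 classes together are called truncating changes here. The label is a prediction from the DNA, and no transcript or protein was measured.

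A stop-gained variant turns a codon for an amino acid into a stop codon, so that translation ends early. Transcripts with such a premature stop are often destroyed by nonsense-mediated decay, a surveillance pathway that depends on the helicase Upf1. The splice donor and acceptor are the short invariant sequences at the start and end of an intron, and their loss can cause an exon to be skipped or an intron to be kept. Many tumour suppressor genes lose function in tumours through such changes.

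All tumours grew from mammary fragments of Balb/c p53null mice, so every group lacks p53. In the gel experiment the fragments were placed in cleared fat pads that had received a hydrogel of collagen 1 (Col1) and basement membrane (BM) extract. The collagen was crosslinked with 500 mM L-ribose for the stiff group (tumours A7, A8 and A9) and not crosslinked for the soft group (A1, A2 and A3). In the host experiment the fragments were placed in LysM-Cre GPX4 mice that were knockout (KO host, tumours B4, B5 and B6) or wild-type (WT host, tumours B1, B2 and B3). LysM-Cre is active in myeloid cells, so the GPX4 knockout concerns cells of the host and not the implanted fragment. Recipients of gels were 3 to 4 weeks old, donors of fragments were 8 to 10 weeks old, and tumours were taken at a set maximum diameter. The labels do not say which tumours came from the same donor, so p-values cover only the spread seen among them. Wild-type tails were also sequenced and were not analysed here. The subject of the study was DNA damage under tissue tension and oxidative stress.

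The tables give the number of variants per transcript and no position, base change, allele fraction or read depth. The depth behind each count is therefore unknown, and whether tumours share the same variant within a gene could not be seen. Inherited differences of the strain from the reference genome, somatic changes and false calls cannot be told apart in these counts. The count of a gene was the maximum over its protein-coding transcripts in each class, and a tumour's total was the sum over genes. Genomic DNA holds no expression, so the tissue label could not be checked against marker genes. Trp53, the gene of p53, and Gpx4 and Lyz2, the locus of LysM-Cre, had 0 truncating changes in each of the 12 tumours. Trp53 had 0 missense variants in stiff tumours, against 1 in soft tumour A2, and 1 in KO host tumour B4, against 2 in WT host tumour B1. Deleted exons leave no entry in such tables, so these values do not check the genotype labels.

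Stop-gained changes were found in 1959 genes, splice acceptor changes in 902 and splice donor changes in 928. Splice changes of either kind were found in 1681 genes. Of the 3157 genes, 1476 had only stop-gained changes, 1198 had only splice changes and 483 had both kinds, 284 of them in the same tumour. Stop-gained changes made up between 53.4% and 56.5% of the truncating changes of a tumour. Splice donor changes numbered between 87.2 and 104 per 100 acceptor changes. The mix of the 3 classes was thus nearly the same in every tumour, while their number ranged from 726 in B5 to 1406 in B1.

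Most of these genes were hit in few tumours, and a small set was hit in all. A truncating change was present in a single tumour in 1590 genes (50.4% of the 3157), in 2 to 4 tumours in 1015 genes, in 5 to 8 in 182 and in 9 to 11 in 100. It was present in all 12 tumours in 270 genes (8.55%). Intermediate recurrence was the least common, as the bars for 5 to 11 tumours show. Among genes with a missense change, 37.7% had it in a single tumour and 12.7% in all 12. Synonymous changes gave 38.8% and 13.1%, and frameshifts 42.0% and 8.39%. The share in 1 tumour was thus highest for truncating changes among these 4 classes, while the share in all 12 was lower than for missense or synonymous changes and close to that of frameshifts, a description over genes with no test. Missense totals were also larger, 5977 to 11194 per tumour against 726 to 1406 truncating changes, and the part of that in these shares was not tested.

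**Figure D1:**
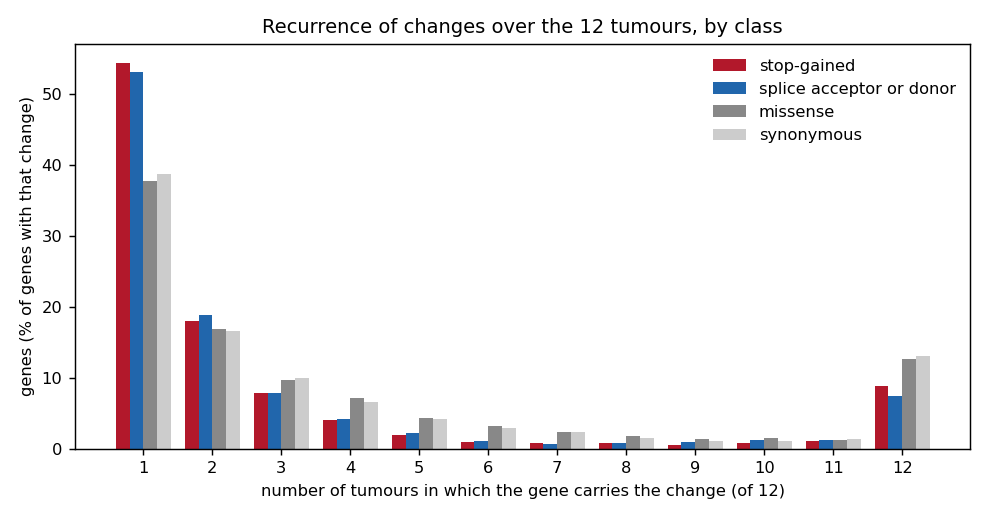
Share of genes (y axis, percent of the genes with that class of change) by the number of tumours in which the gene carries the change (x axis, 1 to 12). Stop-gained and splice changes reach 54.4% and 53.2% in a single tumour and 8.83% and 7.50% in all 12, against 37.7% and 12.7% for missense changes.

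Many of the genes hit in all 12 tumours varied in count between tumours. Of the 270, 127 (47.0%) had the same count in every tumour, and in 114 of these the count was 1. In 229 the highest count was no more than 2 times the lowest, which a gene with counts of 1 and 2 also meets. Stop-gained changes were present in all 12 tumours in 173 genes and splice changes in 126, with 30 genes in both sets. In multigene families such as olfactory receptors and cytochromes P450, near-identical copies can share reads. These families, with predicted genes of Gm or Rik names counted among them, gave 31 of the 270 (11.5%). They made up 17.8% of all protein-coding genes, a larger share. The other 239 lay outside them. The 270 genes were also rich in other variants. They had on average 4.56 missense variants per gene and tumour, against 0.620 in genes hit in 1 tumour and 0.201 in genes with no truncating change. A missense change in all 12 tumours was present in 66.7% of them, against 10.4% and 3.76%, and a frameshift in any tumour in 74.1%, against 46.9% and 18.6%. Genes hit in 9 to 11 tumours were much alike, with 4.43 missense variants, 60.0% and 71.0%. Of genes hit in 5 to 8 tumours, 84.1% had a frameshift, so this richness was not particular to the 270.

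Among the stop-gained genes in all 12 tumours and outside the families, the GTPase-activating protein gene Arhgap30 (ENSMUSG00000048865) had the highest mean count. It had 6, 4 and 6 stop-gained variants in stiff tumours A7, A8 and A9, against 5, 5 and 5 in soft tumours A1, A2 and A3, and 6, 6 and 7 in KO host tumours B4, B5 and B6, against 7, 9 and 5 in WT host tumours B1, B2 and B3. Arhgap30 also had 49 to 103 missense and 9 to 23 frameshift variants per tumour, so its stop-gained variants were a small part of a dense set of calls. Nit1, which encodes an amidase and lies near Arhgap30 on chromosome 1, was similar, with 22 to 43 missense variants per tumour. Its stop-gained variants numbered 4, 5 and 4 in stiff tumours, against 2, 2 and 1 in soft tumours, without overlap (edgeR on all its truncating changes, unadjusted p = 0.0653, adjusted p = 1). They numbered 1, 4 and 3 in KO host tumours, against 4, 2 and 2 in WT host tumours. In contrast, Myh1 (ENSMUSG00000056328), a myosin heavy chain of fast skeletal muscle, had 3 stop-gained variants in every tumour and 2 to 6 missense variants. Ivl, which encodes the epidermal envelope protein involucrin, had 3 in every tumour but A8, which had 2. Zan, the sperm protein zonadhesin, had either 2 or 4 in each tumour, in all 4 groups. Stard9 and Kif20b, which encode kinesins of mitosis and cytokinesis, had 1 to 4 and 2 to 4. The centrosome protein gene Sfi1 had 1 to 3, the Arf GTPase-activating protein gene Acap3 had 2 or 3, and Vwde had 2 in every tumour but soft tumour A1, which had 4. Of these 10 genes, only Myh1 had the same stop-gained count in all 12 tumours.

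Among the genes with the highest mean counts of splice changes in all 12 tumours was Mtor (ENSMUSG00000028991), the kinase at the centre of growth signalling. It had 2 donor variants in every tumour but soft tumour A3, which had 1, and 1 acceptor variant in KO host tumours B4 and B6 and in WT host tumour B2. Mtor had 5 to 15 missense variants per tumour. Pcnx2 had 2 donor variants in every tumour and 1 acceptor variant in WT host tumour B3. The lipid raft gene Flot1 had 1 to 4 donor variants, but a missense variant only in A2, so it was not dense in other changes. The coat protein gene Copa had 1 to 3 splice variants, the calcium channel gene Cacna1h 2 or 3, and the complement gene C4b 1 to 3. Zan and Sfi1 stood among the leading 10 genes in both classes. edgeR's quasi-likelihood test, described below, called 0 of the 18 genes of both sets in either comparison.

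**Figure D2:**
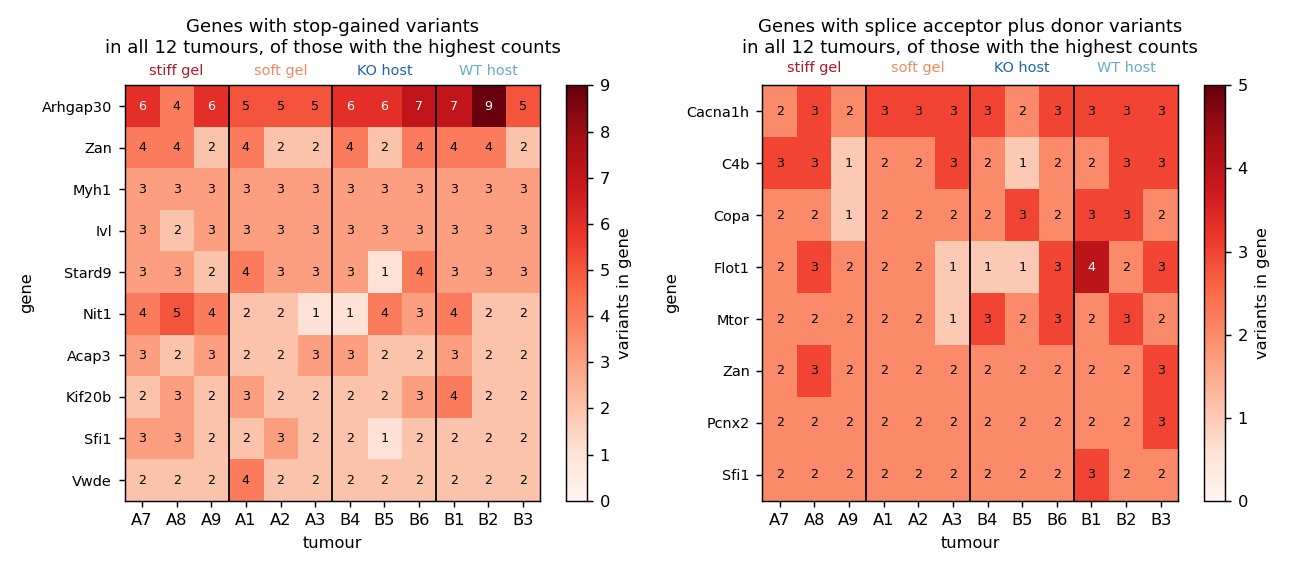
Number of stop-gained variants (left) and of splice acceptor plus donor variants (right) in each tumour (columns, by group) for 10 genes (left) and 8 genes (right) among those with the highest mean count (rows) that were hit in all 12 tumours, multigene families left out. Myh1 has 3 stop-gained variants in every tumour, and Arhgap30 has 4 to 9.

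Not every labelled change affected every transcript of its gene. Over the 9514 pairs of a gene and a tumour, the change was listed in every listed protein-coding transcript in 55.1%. Of the 7060 pairs with more than 1 listed transcript, 39.5% had it in every transcript and 22.2% in 1 transcript only. Genes hit in all 12 tumours had nearly the same shares, 40.1% and 23.3%. Syne1, a giant nuclear envelope gene, was hit in all 12 tumours with 1 stop-gained variant each, but in 1 of 5 listed transcripts. Where the gene's count was taken as the median over its transcripts, 125 of 139 named genes kept their number of tumours, and 5 genes hit by the maximum were hit in 0 tumours, Syne1 among them. With 1 listed transcript the median equals the maximum, and a change in 1 of 2 transcripts still counted as hit. The 125 thus include genes whose number could not change.

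The 270 genes were spread over the genome with some close neighbours. By the RefSeq annotation of GRCm38.p6, used only for gene names, chromosomes and neighbours, chromosome 8 had the highest share of genes with a truncating change in any tumour, 20.3%. The X chromosome had the lowest among chromosomes with over 3 listed genes, 46 of 848 (5.42%), and none of the 270. Chromosome 17 had the highest share of genes hit in all 12 tumours, 2.17%, and chromosome 16 had 1 such gene. In runs of 10 neighbouring genes, at most 4 were hit in all 12 tumours. This occurred on chromosome 9, with Col6a6, Col6a5, Col6a4 and Alas1, and on chromosome 8, with Fcho1, Zfp882, Cyp4f18, Tpm4 and Hsh2d in overlapping runs.

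Genes hit in a single tumour mostly had a single variant. Of the 1590, 1532 had a count of 1, 55 a count of 2 and 3 a count of 3. The 3 were Chd7, a chromatin remodeller, with 1 stop-gained, 1 acceptor and 1 donor variant in stiff tumour A9, Apoo, a mitochondrial inner membrane gene, with 2 stop-gained and 1 donor variant in KO host tumour B4, and the kinase gene Stk32a, with 1 variant of each class in WT host tumour B2. Among genes with a count of 2, Aadac, a deacetylase gene, had 2 stop-gained variants in B4, Abracl 2 acceptor variants in B5 and Adam26a 2 stop-gained variants in B3. Stiff tumours A7, A8 and A9 had 95, 84 and 181 genes hit in no other tumour, against 126, 144 and 112 in soft tumours A1, A2 and A3. KO host tumours B4, B5 and B6 had 95, 115 and 165, against 213, 146 and 114 in WT host tumours B1, B2 and B3. The groups overlapped in both experiments, with an exact permutation p of 0.9 for stiff minus soft and 0.6 for KO minus WT host (adjusted 0.9 and 0.704 over 27 tests). Without A9 the stiff tumours lay below the soft tumours, with a mean of 89.5 against 127 (exact permutation p = 0.2), and without A7, A8 or A2 the difference of -7.33 turned to 5.17, 10.7 and 1.00. Without B1 the difference between KO and WT host tumours was -5.00, against -32.7 with all 6.

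Tumours A9 and B5 stood apart in recurrent genes. Of the 100 genes hit in 9 to 11 tumours, stiff tumours A7, A8 and A9 lacked 12, 6 and 35, against 15, 3 and 6 in soft tumours A1, A2 and A3. KO host tumours B4, B5 and B6 lacked 11, 63 and 11, against 3, 8 and 13 in WT host tumours B1, B2 and B3. Of the 41 genes hit in exactly 11 tumours, B5 was the tumour without the change in 20 and A9 in 7. B5 also had the fewest missense variants, 5977 against 6594 to 11194 in the other tumours, and A9 the fewest frameshift variants, 1317 against 1380 to 3382. The part of these totals in the missing genes was not tested.

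Genes hit in exactly 2 tumours numbered 603. The 2 tumours belonged to the same group in 19.9% of these genes, where 18.2% of all pairs of tumours do. They belonged to the same experiment but different groups in 34.0%, against 27.3% of pairs, and to different experiments in 46.1%, against 54.5% of pairs. The pairs with the most such genes were B6 with B2, which shared 36, and B1 with B3, which shared 35. These tumours also carried many truncating changes each, so the pairs are given as a description.

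Among tumour suppressors and mammary drivers, 11 of 58 genes (19.0%) had a truncating change in any tumour, against 14.8% of all protein-coding genes. Tsc2 and Notch4 were hit in all 12 tumours, against 1.27% of all genes. Notch4 (ENSMUSG00000015468), a Notch receptor, had 1 donor variant in every tumour. Its stop-gained variants numbered 2, 1 and 1 in stiff tumours A7, A8 and A9, against 1, 1 and 2 in soft tumours A1, A2 and A3, and 1, 2 and 2 in KO host tumours B4, B5 and B6, against 2, 2 and 2 in WT host tumours B1, B2 and B3. Tsc2 (ENSMUSG00000002496), an inhibitor of mTOR signalling, had an acceptor variant in 10 tumours, the others being A1 and B6, which each had a donor variant. In some tumours the Tsc2 change was in 1 of 8 listed transcripts, and with the median over transcripts Tsc2 was hit in 3 tumours. Both genes were dense in missense variants, 11 to 23 per tumour for Notch4 and 13 to 23 for Tsc2. Ptch1, the Hedgehog receptor and tumour suppressor, had 1 stop-gained variant in 9 tumours, all but A9, B4 and B5, in 2 of 5 transcripts, and in 0 tumours with the median. Notch3 was hit in 4 tumours.

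Of 89 DNA repair and damage checkpoint genes, 17 (19.1%) had a truncating change, 11 of them in a single tumour and none in all 12. Pold1 (ENSMUSG00000038644), the catalytic subunit of DNA polymerase delta, had 1 donor variant in 10 tumours and 2 in stiff tumour A9, and 0 only in KO host tumour B5. This change was in 1 of 2 listed transcripts. Prkdc, the catalytic subunit of the DNA-dependent protein kinase of end joining, was hit in 6 tumours. It had 1 variant in stiff tumours A7 and A8, against 1 in soft tumour A3, and 1 in KO host tumours B4 and B5, against 2 in WT host tumour B1. Fanca, a Fanconi anaemia gene, was hit in 5 tumours. Pole, the catalytic subunit of DNA polymerase epsilon, had 1 stop-gained variant in soft tumour A3, 2 in KO host tumour B4 and 1 in KO host tumour B6. The Pole change was in 1 of 3 transcripts, and with the median over transcripts Pole was hit in 0 tumours and Fanca in 3.

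Of 20 genes of nonsense-mediated decay and the exon junction, 2 were hit. Upf1 (ENSMUSG00000058301) had an acceptor variant in stiff tumours A7, A8 and A9, with a stop-gained variant too in A9, against soft tumour A3 alone. It was present in KO host tumours B4 and B6, against WT host tumours B1, B2 and B3. Smg1, the kinase that acts on Upf1, had 1 donor variant in A8. Of 61 spliceosome and splicing factor genes, 12 (19.7%) were hit, 8 of them in 1 tumour and none in all 12. Dhx38, a helicase of the splicing reaction, was hit in 8 tumours, its relative Dhx16 in 5 and Snrnp200 in 3.

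Genes of the cytosolic ribosome were seldom hit, those of the proteasome about as often as all genes. Of 85 cytosolic ribosomal protein genes, 4 (4.71%) had a truncating change, against 14.8% of all protein-coding genes. Shares of the gene lists make no allowance for gene length or density of variants. Genes hit in any tumour had a median span of 30.0 kb, against 16.5 kb in genes not hit. Truncating changes numbered 15.8 per 100 missense changes in the ribosomal list and 29.4 in the proteasome list. Over all genes they numbered 11.7 to 12.8 per tumour. The list rates rest on few changes, 0 to 3 per tumour in the ribosomal list and 1 to 3 in the proteasome list. A recurrent gene in each list gave many of these, Rpl3l in 11 tumours and Psmb5 in all 12. The rates therefore do not describe the lists as a whole. The part of length in these shares was not tested. The most recurrent ribosomal gene was Rpl3l, a muscle form of Rpl3, with 1 acceptor variant in every tumour but B5. Fau was hit in B1 and B3 and Rpl6 in B6. Of 39 proteasome subunit genes 6 (15.4%) were hit, and Psmb5 (ENSMUSG00000022193), a catalytic subunit, had 1 stop-gained variant in all 12 tumours, in 1 of 2 listed transcripts, with missense variants in WT host tumour B2 alone. Of 49 ferroptosis and antioxidant genes, to which Gpx4 itself belongs, 6 (12.2%) were hit. Tfrc, the transferrin receptor, was hit in 3 tumours, Hmox1 and Prdx1 in 2 and Alox15 in 1.

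Of 80 collagen and matrix genes, 24 (30.0%) were hit, 4 of them in all 12 tumours. Col17a1, the collagen of hemidesmosomes, had 1 stop-gained variant in every tumour, and 1 donor variant in each but B5, which had 2. Its truncating changes of all classes numbered 3 in A2, B5, B1 and B3 and 2 in each other tumour. Col6a4 had 1 donor variant in every tumour and 1 stop-gained variant in each but A2, which had 2. Col6a5 had 1 to 3 stop-gained variants per tumour and Col6a6 1 or 2 acceptor variants, and both lie beside Col6a4 on chromosome 9. Over the whole list, stiff tumours had 11, 12 and 12 truncating changes in A7, A8 and A9, against 15, 19 and 19 in soft tumours A1, A2 and A3, with no overlap. All truncating changes of these tumours also had no overlap, with 862, 824 and 838 in stiff tumours, against 873, 998 and 916 in soft tumours. The list made up 1.28%, 1.46% and 1.43% of the truncating changes in stiff tumours, against 1.72%, 1.90% and 2.07% in soft tumours, a share examined after its values were seen and given with no test. KO host tumours had 12, 10 and 21 in B4, B5 and B6, against 21, 20 and 19 in WT host tumours B1, B2 and B3, so these groups overlapped. Between stiff and soft tumours, 3 genes of the list were higher and 13 lower, with a median difference in mean count of -0.333, against 707 higher, 889 lower and a median of 0 over all protein-coding genes hit in the 6 tumours. Between KO and WT host tumours 6 were higher and 13 lower (median -0.333), against 710 higher, 1153 lower and a median of 0 over all genes. edgeR called 0 of the 8 and 9 list genes it tested in these comparisons, with 1, Lama3, and 0 at an unadjusted p under 0.05. At counts this low, 0 calls do not show that no gene of the list differs.

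Of 48 giant genes, chosen for their length, 30 (62.5%) were hit and 4 were hit in all 12 tumours, among them Syne1, Lrp2 and Dnah10. Of 45 macrophage and myeloid genes 9 (20.0%) were hit, with Ncf4 of the NADPH oxidase in 4 tumours. Multigene families differed widely. Truncating changes were found in 71 of 1131 olfactory receptor genes (6.28%) and 26 of 312 vomeronasal receptor genes (8.33%), with 6 and 3 genes hit in all 12 tumours. The zinc finger Zfp genes had 72 of 386 (18.7%), the serpins 15 of 63 (23.8%) and the cytochromes P450 15 of 100 (15.0%). Of the cytochromes P450, 5 were hit in all 12 tumours, led by Cyp11b2, an enzyme of steroid synthesis, with 1 to 3 stop-gained and 1 or 2 donor variants per tumour. Among interferon-inducible genes, Ifi205 had 2 stop-gained and 1 donor variant and Ifit1 1 stop-gained variant in every tumour. Reads of near-identical family members may be assigned to the wrong copy, so single members of these families are uncertain.

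**Figure D3:**
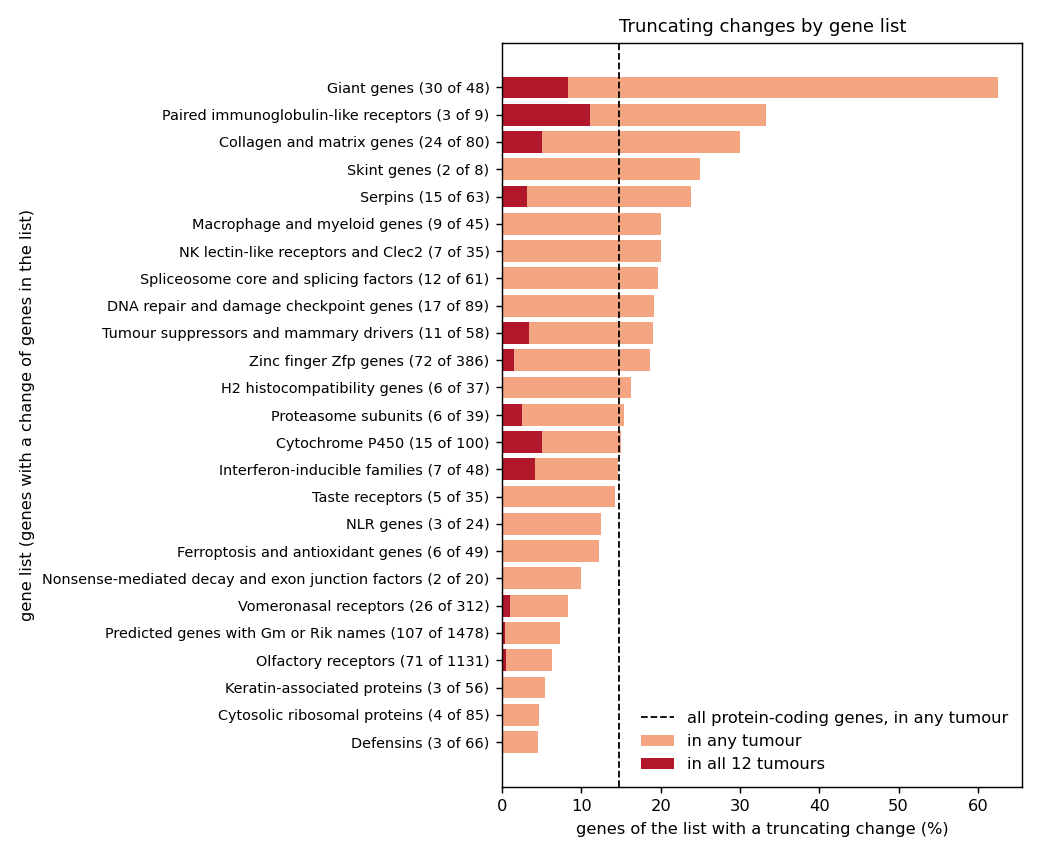
Share of genes with a truncating change in any tumour (pale bars) and in all 12 tumours (dark bars) for 25 gene lists (rows), in percent of the genes of each list. The dashed line marks the 14.8% of all protein-coding genes hit in any tumour, the giant genes reach 62.5% and the ribosomal protein genes 4.71%. Gene length and density of variants are not allowed for.

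The comparison of stiff with soft tumours asks whether gel stiffness goes with the number of truncating changes. Stiff tumours A7, A8 and A9 had 486, 450 and 457 stop-gained changes, against 488, 536 and 507 in soft tumours A1, A2 and A3. They had 199, 185 and 190 splice acceptor changes, against 193, 238 and 206, and 177, 189 and 191 splice donor changes, against 192, 224 and 203. Stiff tumours were thus below soft tumours in stop-gained and donor changes without overlap, by margins of 2 and 1 changes between the nearest tumours, while the acceptor counts overlapped. All truncating changes averaged 841 ± 19.2 in stiff and 929 ± 63.5 in soft tumours (SD, n = 3 each), a difference of -87.7 (-9.44%), with an exact two-sided permutation p of 0.1, the smallest that 20 assignments allow, and an adjusted p of 0.275 over 27 tests. No comparison of 3 with 3 tumours can pass 0.05. The number of genes hit averaged 680 ± 22.3 and 760 ± 55.9 (exact permutation p = 0.1). Without soft tumour A2 the difference in truncating changes was -53.2. Missense changes moved in the same direction, and per 100 missense changes the values were 12.5 ± 0.145 in stiff and 12.6 ± 0.169 in soft tumours (exact permutation p = 0.4).

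In the host comparison, which asks about loss of GPX4 in myeloid cells, the groups overlapped in each class. KO host tumours B4, B5 and B6 had 491, 410 and 679 stop-gained changes, against 751, 653 and 546 in WT host tumours B1, B2 and B3. They had 218, 155 and 290 acceptor changes, against 345, 290 and 250, and 190, 161 and 275 donor changes, against 310, 260 and 227. The KO host tumour B6 lay among the WT host tumours in each class. All truncating changes averaged 956 ± 264 in KO host and 1211 ± 192 in WT host tumours (SD, n = 3 each), a difference of -254 (-21.0%, exact permutation p = 0.3, adjusted 0.45). The difference was -139 without B5, -157 without B1 and -398 without B6. Per 100 missense changes the values were 12.2 ± 0.0978 and 12.3 ± 0.509 (exact permutation p = 0.6), and for stop-gained changes alone the direction turned, with 6.72 in KO host and 6.62 in WT host tumours (exact permutation p = 0.9).

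The effects of the 2 experiments were not shown to differ. The difference between stiff minus soft and KO minus WT in truncating changes was 167, with an exact permutation p of 0.47 over 400 assignments. Gel tumours averaged 885 ± 63.8 and host tumours 1084 ± 249 truncating changes (SD, n = 6 each), a difference of -198 (exact permutation p = 0.0931). Without B5, the host tumour with the fewest truncating changes, it was -270 (exact permutation p = 0.00866, unadjusted). Leaving out any other single tumour gave an exact permutation p between 0.0628 and 0.197. Per 100 missense changes the direction turned, with 12.6 in gel and 12.2 in host tumours (exact permutation p = 0.0584). Stop-gained changes alone gave 6.92 and 6.67 per 100 missense changes (exact permutation p = 0.0303, adjusted 0.275). Gel, host strain and any difference between sequencing runs cannot be told apart in this comparison.

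**Figure D4:**
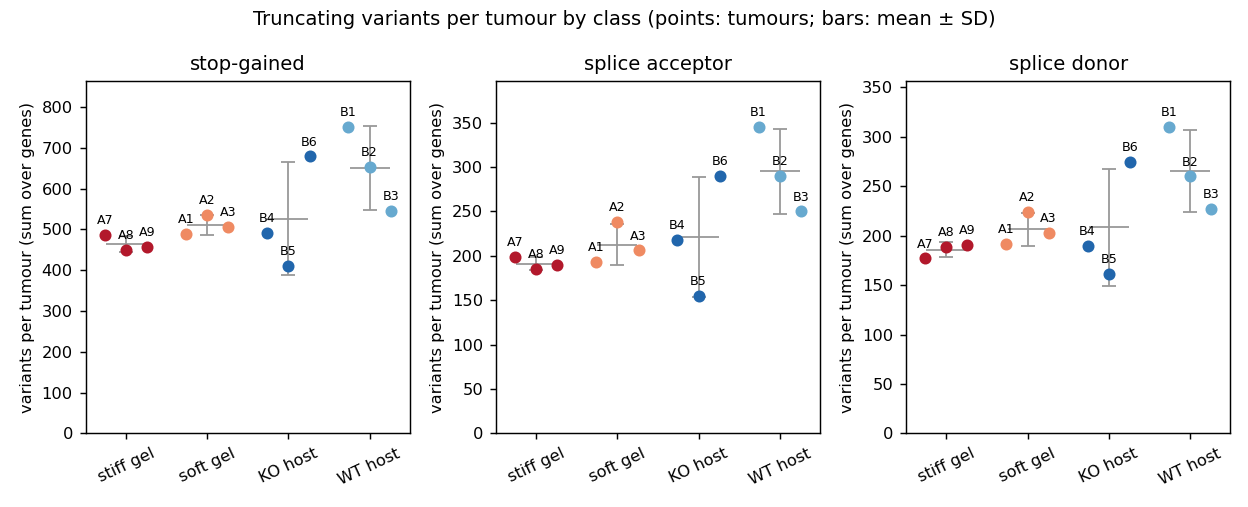
Number of stop-gained, splice acceptor and splice donor variants (y axes, summed over protein-coding genes) in each tumour (points, with names), by group, with the mean ± SD of 3 tumours in grey. The WT host tumour B1 is highest and the KO host tumour B5 lowest in each class.

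For single genes, edgeR's quasi-likelihood test with equal library sizes called 0 of 514 genes (0%) at an adjusted p under 0.05, and every adjusted p was 1. A gene with 1 variant in each tumour of one group and 0 in the other had an edgeR unadjusted p of 0.0414. At such low counts a gene could hardly pass the adjustment, so 0 calls do not show that no gene differs. Unadjusted p-values under 0.05 were found for 10 genes (1.95%), of which 4 were higher (0.778%) and 6 lower (1.17%) in stiff tumours, while DESeq2 called 0 genes and had 0 at an unadjusted p under 0.05. A truncating change in all 3 tumours of one group and in none of the other was present in 11 of the 1980 genes hit in these tumours (0.556%). The stiff tumours carried 4 of these (0.202%) and the soft tumours 7 (0.354%). With 1 tumour fewer the pattern asks less of its group, and the split changed to 20 carried by stiff and 8 by soft tumours without A9, 14 and 11 without A8, and 15 and 14 without A7, against 4 and 44 without A1, 7 and 30 without A2, and 7 and 33 without A3. Stiff tumours carried more when any stiff tumour was left out. The looser pattern by itself moves the counts that way, so no conclusion is drawn from the turn.

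Those carried by stiff tumours were Cc2d1b, F11r, Reps1 and the olfactory receptor gene Olfr1053. F11r (ENSMUSG00000038235), the junctional adhesion molecule JAM-A, had 1 acceptor variant in A7, A8 and A9, against 0 in A1, A2 and A3, and was also hit in WT host tumours B1 and B2. Cc2d1b had 1 acceptor variant in each stiff tumour, against 0 in each soft tumour, and was also hit in B6 and B2. Reps1, an endocytosis gene, had 1 donor variant in A7 and A8 and 1 stop-gained variant in A9. The class thus differed between tumours of the same group, so Reps1 was not hit by the same change in all 3. Each of these genes had an edgeR unadjusted p of 0.0414 and an adjusted p of 1.

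Those carried by soft tumours were Herc2, Lama3, Med10, Misp, Sept11, Slc27a1 and the predicted gene Gm5591. Med10 (ENSMUSG00000021598), a subunit of the Mediator complex of transcription, had 0 stop-gained variants in stiff tumours A7, A8 and A9, against 1 in each of soft tumours A1, A2 and A3. It was present in every host tumour too, with 1, 1 and 1 in KO host tumours B4, B5 and B6, against 2, 1 and 2 in WT host tumours B1, B2 and B3. Med10 was the only gene hit in all 9 other tumours and in none of the stiff group. Its missense count had the same pattern, 0 in each stiff tumour against 1 in each of the 9 others. Its change was in 1 of 4 transcripts in some tumours, and with the median over transcripts Med10 was hit in 2 tumours. Herc2, a giant ubiquitin ligase gene, had 0 in each stiff tumour against 1, 1 and 3 in A1, A2 and A3. The variants were stop-gained in A1 and A2 and splice variants in A3. Lama3, a laminin chain of epithelial basement membranes, had 0 in each stiff tumour against 1 in each soft tumour, stop-gained in A1 and A2 and donor in A3. Slc27a1, a fatty acid transporter gene, had 1 acceptor variant in each soft tumour and in B3, and Misp, a gene of mitotic spindle positioning, 1 stop-gained variant in each soft tumour and in B4.

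In the host comparison edgeR also called 0 of 710 genes (0%), with a lowest adjusted p of 0.891. The same limit of low counts holds here. Unadjusted p-values under 0.05 were found for 33 genes (4.65%), of which 5 were higher (0.704%) and 28 lower (3.94%) in KO host tumours, and DESeq2 called 0 and had 0 at an unadjusted p under 0.05. With library sizes set to each tumour's truncating total, 14 genes had an unadjusted p under 0.05, of which 6 were higher and 8 lower. A change in all 3 tumours of one group and none of the other was present in 32 of 2327 genes (1.38%). The KO host tumours carried 5 of these (0.215%) and the WT host tumours 27 (1.16%). When B4 was dropped, KO host tumours carried 17 and WT host tumours 43. Dropping B5 gave 34 carried by each group, and dropping B6 gave 8 for KO host and 46 for WT host. The same counts were 9 and 53 with B1 dropped, 5 and 85 with B2 dropped, and 8 and 80 with B3 dropped. The WT host tumours thus carried more in each case but that without B5, the tumour with the fewest truncating and missense changes of the 12. Leaving out a tumour eases the pattern for its own group, so these splits are a description.

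The genes carried by KO host tumours were Angptl1, Mybpc3, Tmc4, Zfp598 and 2810004N23Rik. Tmc4 (ENSMUSG00000019734), a transmembrane channel-like gene, had 1 acceptor variant in each of B4, B5 and B6, against 0 in B1, B2 and B3. It had the same count in the 3 stiff and the 3 soft tumours, so WT host tumours were the only ones without it. Angptl1, a secreted angiopoietin-like factor, had 1 stop-gained variant in each KO host tumour, against 0 in each WT host tumour, and 0 in all gel tumours. Angptl1 and 2810004N23Rik were the only genes hit in all KO host tumours and nowhere else. Mybpc3, a cardiac muscle gene, was stop-gained in B4 and B6 and donor in B5, and was also hit in A8, A2 and A3.

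The genes carried by WT host tumours included Dock10, Klf4, Zbtb7c, C1ra, Kif2c, Pxdn, Amdhd1, Ampd1, Ces1b and Dhx16. Dock10 (ENSMUSG00000038608), a guanine nucleotide exchange factor of leukocytes, had 0 in each of B4, B5 and B6, against 5, 2 and 2 in B1, B2 and B3. In gel tumours it had 4, 2 and 3 in A7, A8 and A9, against 2, 0 and 2 in A1, A2 and A3. Missense variants of Dock10 had nearly the same pattern, with 0, 1 and 0 in KO host tumours B4, B5 and B6, against 12, 3 and 5 in WT host tumours B1, B2 and B3, and 0 in A2. Its edgeR unadjusted p was 0.0407 and its adjusted p 0.891. Klf4 (ENSMUSG00000003032), a transcription factor of epithelial differentiation, had 0 in each KO host tumour, against 4, 2 and 2 in B1, B2 and B3. Each of these tumours had equal numbers of acceptor and donor variants in Klf4, as had soft tumour A2 with 2 of each, and with the median over transcripts Klf4 was hit in 2 tumours. Zbtb7c, a zinc finger and BTB domain gene, had 0 in each KO host tumour, against 2, 1 and 2 in B1, B2 and B3, with the lowest unadjusted p of the comparison, 0.0154. Kif2c, a kinesin of the mitotic spindle, had 1, 2 and 1 in B1, B2 and B3, and the peroxidasin gene Pxdn likewise, against 0 in each KO host tumour. C1ra, a complement protease gene, had 2, 1 and 1 in these tumours, against 0 in each KO host tumour, but 2 in both A7 and A8. The splicing helicase gene Dhx16 had 1 in each WT host tumour, against 0 in each KO host tumour, stop-gained in B1 and B3 and acceptor in B2.

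Of the 27 genes, 8 were hit in all WT host tumours and in no other tumour. Over all genes, 274 were hit in exactly 3 tumours. The 8 were Amdhd1, Ces1b, Klra5, Nfs1, Nphs1, Nr2c1, Pqlc2 and Smco2. No gene was hit in all stiff tumours and nowhere else or in all soft tumours and nowhere else, and none separated all gel from all host tumours. Of these 8, Ces1b was hit by 1 donor variant in B1 and B2 and by 1 stop-gained variant in B3, while Amdhd1 had 1 donor variant in each. These genes were chosen by their own values, so their counts are a description. WT host tumours also had the highest mean number of truncating changes, 1211, against 956 in KO host, 929 in soft and 841 in stiff tumours. The part of these totals in the counts of such genes was not tested.

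**Figure D5:**
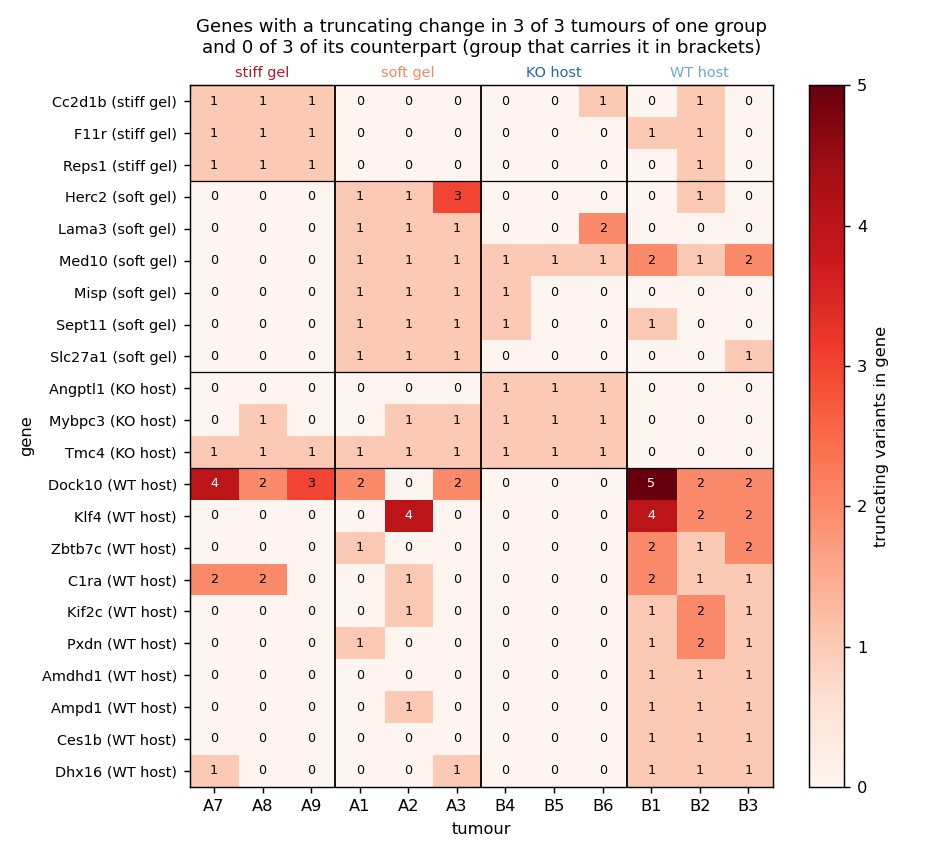
Number of truncating variants in each tumour (columns, by group) for up to 10 genes per direction and comparison (rows) hit in every tumour of one group and in none of its counterpart, the group that carries the change in brackets, multigene families left out. Med10 is hit in every tumour outside the stiff group, Tmc4 in every tumour outside the WT host group, and Dock10 in 5 of 6 gel tumours.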

How the data were processed

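Exome libraries were made with a SureSelectXT capture kit and read as 150 bp pairs at a stated depth above 50x, per the labels' protocols. BWA 2.2.1, SAMtools 1.19.2, GATK and the build GRCm39 are named in the submitters' processing notes. Not given in the sources used here are the caller's settings, its filters, any use of matched normals and the annotation database. The deposited values are counts of variants per transcript and effect, written by snpEff per the file headers, and hold only transcripts with a variant. Unlisted transcripts and absent columns were taken as 0, so a 0 does not show that a gene was covered.

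Counts of protein-coding transcripts were collapsed to the maximum per gene and class, and summed over genes. A variant can count in several overlapping genes or classes. Of the symbols, 96.4% matched the RefSeq table of GRCm38.p6. Tables hold no positions, so no sequence is shown.

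Totals were compared between groups by exact permutation, two-sided, adjusted over 27 tests by Benjamini-Hochberg. Where a gene's counts over the 6 tumours came to 3 or more, edgeR 4.0.16 was run (quasi-likelihood test, equal library sizes, adjusted p under 0.05), and DESeq2 1.42.0 as an alternative. The edgeR procedure was tested on simulated data with large folds, in genes whose mean counts were raised above those of most genes here. The permutation test was tried on small made-up sets of values. These trials do not show how well differences at the low counts of these data would be found. Where edgeR could not fit a dispersion trend, as in 7 fits that left out a tumour, a common dispersion was used.

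Named genes were Trp53, Gpx4 and Lyz2, the 10 highest stop-gained and 10 highest splice genes in all 12 tumours, up to 10 genes per direction present in all tumours of one group and none of the other, the 6 highest single-tumour genes, and the 4 most recurrent genes of each of 25 lists. A selection is printed, some genes of the rule are not reported here, and other genes were named after their values were seen. The genes and lists were chosen with earlier results of these data known. Alternatives changed the collapse over transcripts, biotypes, families, classes, scaling, filter, tool and tumours.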

Additional observations from a re-analysis of the deposited data

Results flagged for a closer look

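Truncating labels also appeared outside protein-coding genes. Genes with a blank biotype had 451 such labels over the 12 tumours, between 16 in stiff tumour A9 and 54 in WT host tumours B1 and B2. They were picked out because they lie outside the protein-coding rows on which the main comparisons rest. The alternatives over all biotypes included them. Immunoglobulin variable gene segments had 133 and unprocessed pseudogenes 93. What the blank rows annotate is not given in the sources used here. In 18 checks of the 6 gel or 6 host tumours for a value far from the others, none was found. These checks do not show that no tumour stood apart. Of the 100 genes hit in 9 to 11 tumours, B5 lacked 63 and A9 lacked 35, against 3 to 15 in the other tumours.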

How the results depend on the processing

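Of the alternatives for the main results, 181 kept the direction and the side of the threshold, or stayed within 1.5 times a count. Of the others, 17 moved further, 6 turned and 2 passed the threshold. Totals compared in 3 against 3 tumours, or with 1 left out, could not pass 0.05, so their side of it was fixed in advance. edgeR's own scaling gave all tumours of a comparison the same effective library size, so that alternative repeated the main fit. Per 100 missense changes the difference turned to 0.0976 for stop-gained changes and 0.0122 for genes hit (KO minus WT host), and to 0.325 for gel minus host truncating changes. Gel minus host truncating changes passed 0.05, unadjusted, only without A9 and B5 together (-260.4) or without B5 alone (-269.8). Leaving out each tumour in turn gave -269.8 to -133.8 for that difference, -116 to -53.2 for stiff minus soft and -398 to -139 for KO minus WT truncating changes. For genes hit in 1 tumour it gave -37.8 to 10.7 (turned to 5.17, 10.7 and 1.00 without A7, A8 and A2) and -54.5 to -5.00, chosen after seeing the data. For genes hit it gave -104 to -49.8 and -294 to -110. Splice acceptor changes gave -30.7 to -8.17 (lowest in size without A2) and -108 to -41.0, donor changes -27.8 to -11.8 and -90.2 to -33.2, and stop-gained changes -57.2 to -33.2 and -200 to -65.0. edgeR called 0 genes in every alternative, which at these low counts does not show that no gene differs. Genes present in all tumours of one group and none of the other numbered 5 (stiff and soft) and 14 (KO and WT host) for stop-gained changes alone. Leaving out a tumour gave 25 to 48 and 54 to 90 of them, since fewer tumours then have to share the pattern. Recurrence in all 12 tumours was 173 genes for stop-gained and 126 for splice changes alone, and 894 genes had a splice change in 1 tumour, since fewer classes then count. With the median over transcripts, Ifi213 was hit in 4 tumours, Vmn1r184 in 3, Serpinh1 in 2, Tfrc in 1 and H2-T3 and Olfr152 in 0. Library sizes set to each tumour's truncating total, chosen after seeing the data, gave 12 genes at an unadjusted p under 0.05 for stiff against soft and 14 for KO against WT host. No paired analysis was possible because the labels do not say which tumours share a donor. Limits are 3 tumours per group, unknown depth, no positions or allele fractions, and no matched normal in these tables.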
